A study of Mus musculus with 6 samples.

Results

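Hlf, Mecom, Meis1, Prdm16, Mllt3, Etv6, Gata3, Zfx and Nfix are 9 nuclear regulators known from mouse and human work on blood stem cell self-renewal. They were taken by symbol, through the Ensembl identifiers of the deposited table, and all 9 were found among its 41128 genes. The RNA came from C57BL mice given YH250, described in the labels as an antagonist of the interaction between p300 and catenin, at 2 mg/kg under the skin, or given DMSO, its vehicle. After 16 h the marrow was collected and sorted for Lin-Sca1+c-Kit+CD41-CD48-CD150+ cells, which the labels call long-term repopulating stem cells. Each group had 3 libraries, numbered 1 to 3 in both groups. The sources used here do not give what the numbers stand for or whether each library came from its own animals, so p-values measure only the spread between these libraries. A design note names genes of stemness and symmetric expansion as the ones to be looked at after YH250, and the question here is whether these regulators differed between the groups and how they varied between libraries.

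Long-term stem cells keep the blood system going by dividing without losing their own state. They do so with a set of transcription factors, several of which are switched down as cells commit to multipotent and lymphoid or myeloid progenitors. Hlf is a bZIP factor of the PAR family, Mecom and Prdm16 are zinc finger proteins with a PR domain, and Meis1 is a TALE homeodomain protein that binds DNA together with HOX proteins. Mllt3 (AF9) reads acylated histones through its YEATS domain and brings in elongation factors and the methyltransferase Dot1l. Etv6 is a repressor of the ETS family, Gata3 a GATA factor best known from T cells and innate lymphoid cells, Zfx an X-linked zinc finger activator, and Nfix a member of the nuclear factor I family.

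The deposited values fit 1 plus the reads per 1e6 reads (RPM), and 1 is subtracted throughout. A step analysis put 1 RPM at 22.0 to 31.2 reads, and the RPM of all genes came to 70.0% to 95.9% of a full library. That share was 77.9%, 84.9% and 93.6% in YH250 libraries 1 to 3, against 70.0%, 75.6% and 95.9% in DMSO libraries 1 to 3. It rose with the number in both groups, and results with RPM rescaled to one sum are given at the end. On the first principal component, 48.0% of the variance, the libraries numbered 3 lay at -72.3 (YH250) and -67.4 (DMSO), and the other 4 between 26.8 and 49.0. On the second, 26.9% of the variance, YH250 library 2 stood apart at -79.3, and the other 5 lay between -0.85 and 36.2. The genes of the sort markers varied with the replicate number. Slamf1, the gene of CD150, had 31.5, 3.92 and 1.54 RPM in YH250 libraries 1 to 3, against 35.5, 0.52 and 4.69 RPM in DMSO libraries 1 to 3. Cd48, whose protein the sort excluded, had 13.1, 66.9 and 252 RPM in YH250 libraries 1 to 3, against 10.2, 31.5 and 258 RPM in DMSO libraries 1 to 3. The libraries numbered 1 had the highest Slamf1 and the lowest Cd48 of the 6. Itga2b, the gene of CD41, which the sort excluded as well, was highest there, at 37.4 RPM (YH250) and 43.7 RPM (DMSO), against 5.65 to 26.3 RPM in the other 4. Ly6a, a gene of Sca1, which the sort selected, was lowest there. It had 122, 208 and 319 RPM in YH250 libraries 1 to 3, against 80.9, 155 and 241 RPM in DMSO libraries 1 to 3. Kit had 218, 160.1 and 129.6 RPM in YH250 libraries 1 to 3, against 318, 265 and 213 RPM in DMSO libraries 1 to 3. Within each number Ly6a was higher and Kit lower in YH250. In bulk RNA, fewer cells of a type and less RNA per cell cannot be told apart.

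All 9 regulators were well above the filter of a mean of 1 RPM that left 13597 genes for testing. The lowest value of any of them was 6.63 RPM, Prdm16 in YH250 library 3, which corresponds to 159 reads. Levels can be compared between genes only per length, here RPM per kb of annotated exon. On that scale Hlf was the highest at a mean of 42.6 RPM per kb over the 6 libraries (17.0 to 69.6). Etv6 at 26.6 (23.1 to 29.6) and Meis1 at 22.9 (12.4 to 33.5) came next. Zfx followed at 9.19, Mllt3 at 7.12, Gata3 at 6.80, Nfix at 6.75 and Mecom at 5.09, all as mean RPM per kb, and Prdm16 was the lowest at 1.29 (0.71 to 1.73). Neighbours in this order overlapped in range, except that Meis1 was above Zfx and Mecom above Prdm16 in 6 of 6 libraries. Mllt3 had the widest ratio of the highest to the lowest library, 7.45, then Mecom with 5.10 and Hlf with 4.10, while Etv6 had the narrowest with 1.28.

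**Figure D1:**
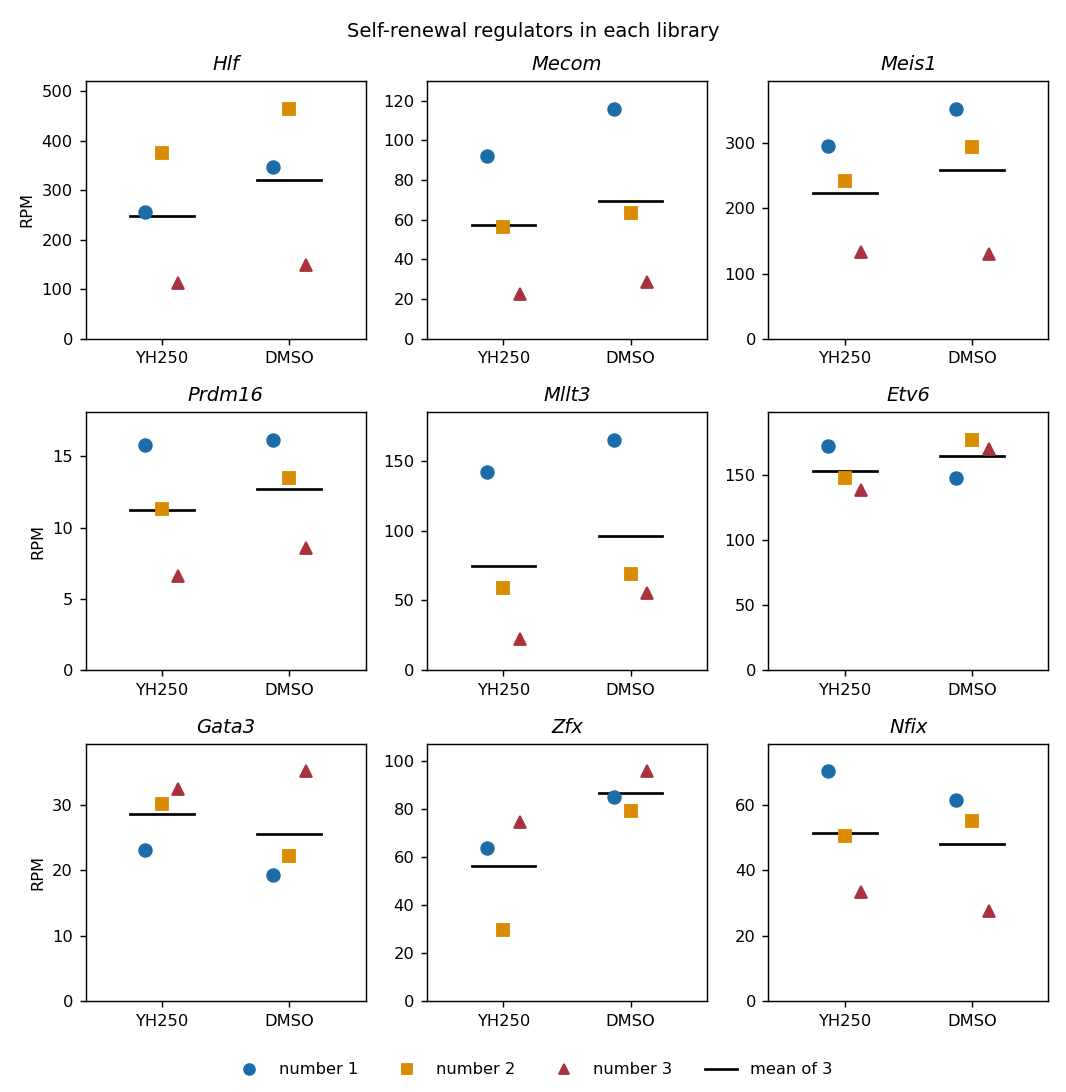
Level of each of the 9 regulators in RPM (vertical axis from 0, 1 panel a gene) in every library, with YH250 left of DMSO, a symbol for each replicate number and a line at the mean of 3. The libraries numbered 3 are the lowest of their group for Hlf, Mecom, Meis1, Prdm16, Mllt3 and Nfix in both groups, and Etv6 stays within 138 to 177 RPM.

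After YH250 none of the 9 regulators passed a Benjamini-Hochberg adjusted p of 0.05 against DMSO (limma, adjusted over the 13597 genes). That fit called 0% of the 13597 genes at that threshold, with or without the replicate number as a block, so 0 of 9 is no different from the background. At an unadjusted p of 0.05 it called 1.7% of all genes and none of the 9, and the blocked fit called 7.44% of all genes and 3 of the 9, namely Hlf, Mllt3 and Zfx. In group means 7 of the 9 were lower in YH250 and 2 were higher (Gata3 and Nfix). The median difference of the 9 was -0.20 on the log2(RPM + 1) scale, on which all differences below are given, against 0.02 over all tested genes. Within number 1 the 9 had a median difference of -0.22, within number 2 of -0.23 and within number 3 of -0.33, with 6, 8 and 7 of them lower in YH250, while the medians of all tested genes were 0.06, 0.06 and -0.06.

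Marker lists of other cells and of the cell cycle also differed in group means, with no gene of them called. Of the tested B cell markers 8 of 8 were higher in YH250 (median 0.63), of T, NK and innate lymphoid markers 14 of 15 (0.39), and of multipotent and lymphoid-primed progenitor markers 7 of 9 (0.24). Endothelial and stromal markers were higher in 9 of 11 (0.29), S phase genes in 11 of 12 (0.40) and G2 and M phase genes in 11 of 12 (0.57), myeloid markers in 6 of 12 (0.10) and megakaryocyte and erythroid markers in 3 of 9 (-0.15). Summed B cell markers were 175 to 891 RPM in YH250 libraries and 65.5 to 694 RPM in DMSO libraries, and summed G2 and M phase genes 639 to 1348 RPM in YH250 libraries and 394 to 1105 RPM in DMSO libraries. Of the 5 sort genes 4 were higher in YH250, among them Ly6a (0.47), and Kit was lower (-0.66). For Kit the unadjusted p was 0.0342 and, with the block, 0.00146 (limma, adjusted p 0.999 and 0.66). For Ly6a it was 0.322 and, with the block, 0.0117 (limma, adjusted p 0.999 and 0.66). The part of these marker and sort genes in the levels of the 9 regulators was not tested.

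The median of the 9 depended on which libraries were in. It was 0.10 without YH250 library 3, -0.46 without YH250 library 1, -0.60 without DMSO library 3, -0.01 without DMSO library 1 and -0.06 without DMSO library 2. With both libraries of a number left out, so that the numbers stayed balanced, it was -0.28 without number 1, -0.18 without number 2 and -0.22 without number 3.

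Hlf (GRCm38 chr11:90336536-90390895, minus strand; all coordinates are of this build) had 256, 375 and 114 RPM in YH250 libraries 1 to 3, against 347, 465 and 149 RPM in DMSO libraries 1 to 3. The groups overlapped widely, since the number 3 library was the lowest and the number 2 library the highest in each, but the YH250 library was below the DMSO library of the same number in 3 of 3 pairs. The pairs differed by -0.44, -0.31 and -0.39. Hlf averaged 248 ± 131 RPM after YH250 and 320.4 ± 159.9 RPM after DMSO (SD, n = 3 each), a log2 difference of -0.38 (SE 0.52, limma adjusted p = 0.999). Blocking on the replicate number gave a standard error of 0.15 and a 95% confidence interval of -0.71 to -0.05, at an adjusted p of 0.66.

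Mecom (chr3:29951296-30548008, minus strand), whose product EVI1 is needed to maintain mouse stem cells, had 92.1, 56.4 and 22.7 RPM in YH250 libraries 1 to 3, against 116, 63.5 and 28.8 RPM in DMSO libraries 1 to 3. It was lower in YH250 in 3 of 3 pairs, by less than the spread between numbers. The log2 difference was -0.27 (SE 0.61, 95% confidence interval -1.68 to 1.13), and the blocked fit narrowed the interval to -0.69 to 0.14. Prdm16 (chr4:154316125-154636873, minus strand), its relative, had 15.8, 11.3 and 6.63 RPM in YH250 libraries 1 to 3, against 16.2, 13.5 and 8.57 RPM in DMSO libraries 1 to 3. The groups overlapped and the order of the numbers was the same in both, with a log2 difference of -0.20 (SE 0.42). Prdm16 too was lower in YH250 in 3 of 3 pairs, by pair differences of -0.03, -0.23 and -0.33, with a blocked interval of -0.90 to 0.51. The share of all tested genes lower in 3 of 3 pairs was not counted.

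Meis1 (chr11:18879817-19018985, minus strand) had 296, 242 and 134 RPM in YH250 libraries 1 to 3, against 353, 293 and 130.2 RPM in DMSO libraries 1 to 3. The number 1 and number 2 pairs were lower in YH250 and the number 3 pair was not, with pair differences of -0.25, -0.28 and 0.04. Its log2 difference was -0.16 (SE 0.42), with a blocked interval of -0.51 to 0.18. An antisense gene, Gm16140, shares 8.51% of the exon bases of Meis1 and is listed at a mean of 9.44 RPM. The sources used here do not give whether reads were counted by strand.

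Mllt3 (chr4:87769925-88033364, minus strand) had 142, 58.9 and 22.2 RPM in YH250 libraries 1 to 3, against 165, 69.1 and 55.1 RPM in DMSO libraries 1 to 3. YH250 library 3 was the lowest of the 6, and the pair differences were -0.22, -0.23 and -1.27, so most of the mean difference of -0.57 (SE 0.69) came from number 3. The blocked fit gave an interval of -1.10 to -0.05 and an adjusted p of 0.66. Without YH250 library 3 the mean difference was 0.09, and without both libraries numbered 3 it was -0.22.

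Zfx (chrX:94074631-94123702, minus strand) was the 1 regulator of the 9 whose groups did not overlap. It had 63.7, 29.8 and 74.7 RPM in YH250 libraries 1 to 3, against 84.9, 79.0 and 95.7 RPM in DMSO libraries 1 to 3. Among all tested genes 7.48% had groups that did not overlap and 3.68% had all YH250 libraries below all DMSO libraries, so 1 such gene in 9 is close to the background. Zfx averaged 56.1 ± 23.4 RPM after YH250 and 86.5 ± 8.44 RPM after DMSO (SD, n = 3 each), a log2 difference of -0.71 (SE 0.34, unadjusted p = 0.0647 and adjusted p = 0.999 by limma). The pair differences were -0.41, -1.38 and -0.35. The size rested on YH250 library 2, without which the difference was -0.32; without both libraries numbered 2 it was -0.38. That library also had 633 RPM summed over 12 endothelial and stromal markers, against 216 to 293 RPM in the other 5. Its sum included 202 RPM of Cxcl12 and 58.2 RPM of Lepr. Plvap, Emcn, Vcam1 and Egfl7 were also highest in that library. Cdh5, Pecam1, Kdr, Col1a1, Pdgfrb and Tie1 were not, with Kdr at 1.52 RPM and Col1a1 at 0.29 RPM. The part of these markers in the result was not tested.

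Etv6 (chr6:134035700-134270158, plus strand), which mouse adult stem cells need to persist in the marrow, had 173, 148 and 138 RPM in YH250 libraries 1 to 3, against 148, 177 and 170.1 RPM in DMSO libraries 1 to 3. It was higher in YH250 at number 1 and lower at numbers 2 and 3, with a log2 difference of -0.11 (SE 0.21). Its 95% confidence interval, -0.58 to 0.36, was the narrowest of the 9 in the fit without a block. Gata3 (chr2:9857078-9890034, minus strand) had 23.1, 30.2 and 32.4 RPM in YH250 libraries 1 to 3, against 19.3, 22.2 and 35.2 RPM in DMSO libraries 1 to 3. The groups overlapped, with a log2 difference of 0.19 (SE 0.31).

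Nfix (chr8:84699876-84800344, minus strand), which mouse stem and progenitor cells need to survive after transplantation, had 70.2, 50.4 and 33.4 RPM in YH250 libraries 1 to 3, against 61.3, 54.9 and 27.7 RPM in DMSO libraries 1 to 3. The groups interleaved by number, and the log2 difference was 0.11 (SE 0.37). Leaving out YH250 library 3 put the differences of Hlf, Mecom, Meis1, Prdm16 and Mllt3 above 0, at 0.09 to 0.27. Leaving out DMSO library 1 did so for Mecom (0.20) and Meis1 (0.12), while Nfix was at -0.14 without YH250 library 1 and at -0.24 without DMSO library 3. Each of these omissions leaves the numbers unbalanced between the groups. Without both libraries numbered 3, the differences were -0.37 for Hlf, -0.25 for Mecom, -0.27 for Meis1, -0.13 for Prdm16 and -0.22 for Mllt3, and without both libraries of any 1 number each of the 9 kept the sign it had with all 6.

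**Figure D2:**
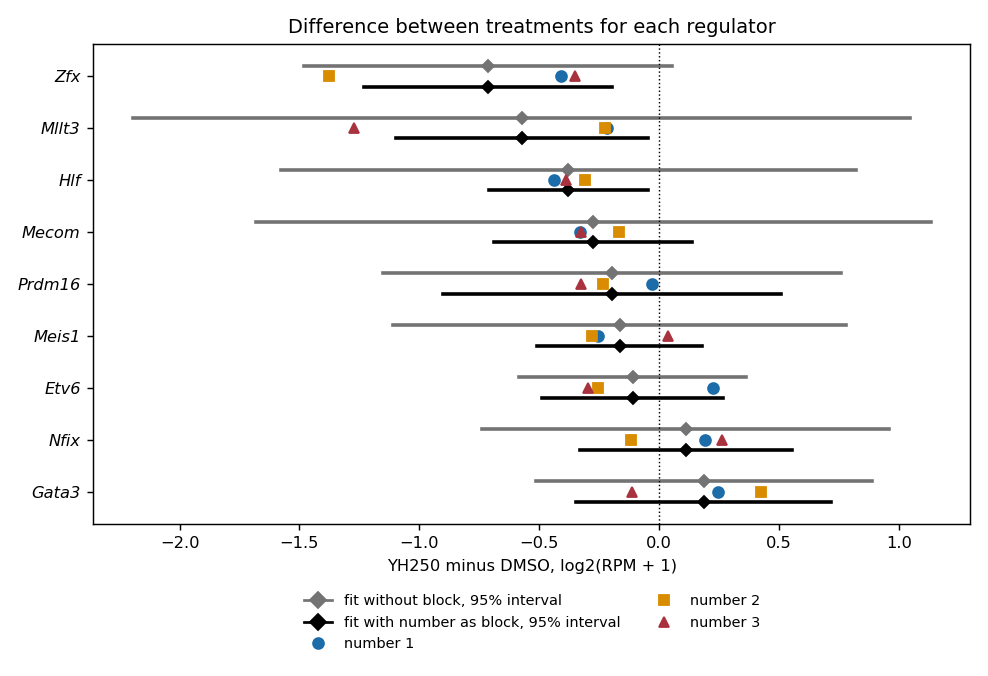
Difference between YH250 and DMSO on the log2(RPM + 1) scale for each of the 9 regulators, with the 95% confidence interval of the fit without (grey) and with (black) the replicate number as a block, and a coloured symbol for the pair of each number. Every interval without the block covers 0, and with the block those of Hlf, Mllt3 and Zfx lie below 0 before adjustment.

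Between replicate numbers, unlike between treatments, several of these regulators passed the test. Between the libraries numbered 3 and those numbered 1, with treatment as a second term, Mllt3, Mecom, Meis1, Hlf and Nfix fell and the other 4 did not pass the test. That is 5 of 9 lower and 0 higher, where 8.56% of all tested genes were called and 2.96% were called lower. The median of the 9 was -1.09, against 0.04 over all tested genes. In 6 of the 9 (those 5 and Prdm16) both libraries numbered 3 were below both numbered 1, as in 27.6% of all tested genes. The contrast between numbers 3 and 2, which uses the same number 3 libraries, called 6.31% of all genes, 2.64% lower, and 3 of the 9 (Hlf, Mecom and Meis1), all lower. That between numbers 2 and 1 called 0.199% of all genes and none of the 9.

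The mean level of Mllt3 in RPM was 38.7 in number 3, 64.0 in number 2 and 154 in number 1 (2 libraries each). Number 3 was lower than number 1 by a log2 difference of -2.10 (SE 0.29, limma adjusted p = 0.00244). That of Mecom was 25.7 RPM in number 3, 60.0 in number 2 and 104 in number 1. It fell by 1.97 (SE 0.23, adjusted p = 0.000869 by limma) in number 3 against number 1 and by 1.20 (SE 0.23, adjusted p = 0.0161) against number 2. For both genes number 2 lay between the other numbers in each group.

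Hlf had another order, with means of 131 RPM in number 3, 420.2 in number 2 and 301.5 in number 1. It fell by 1.68 (SE 0.18, limma adjusted p = 0.00139) in number 3 against number 2 and by 1.19 (SE 0.18, adjusted p = 0.00404) against number 1, and number 2 was above number 1 by 0.49 (adjusted p = 0.282). Meis1 averaged 132 RPM in number 3, 267 in number 2 and 324 in number 1. It fell by 1.29 (SE 0.19, limma adjusted p = 0.00342) in number 3 against number 1 and by 1.01 (SE 0.19, adjusted p = 0.0157) against number 2. Nfix averaged 30.5 RPM in number 3, 52.7 in number 2 and 65.8 in number 1, and fell by 1.09 (SE 0.24, limma adjusted p = 0.0249) in number 3 against number 1.

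The other 4 did not pass. Prdm16 averaged 7.6 RPM in number 3, 12.4 in number 2 and 16.0 in number 1, a log2 difference of -0.99 between numbers 3 and 1 (SE 0.38, limma adjusted p = 0.150). Gata3 ran the other way, with 33.8 RPM in number 3, 26.2 in number 2 and 21.2 in number 1, a difference of 0.65 between numbers 3 and 1 (SE 0.29, limma adjusted p = 0.203). Etv6 averaged 154 RPM in number 3, 163 in number 2 and 160.1 in number 1. Zfx had its lowest mean in number 2 at 54.4 RPM, with 85.2 in number 3 and 74.3 in number 1.

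Each of these contrasts rests on 2 libraries per number. The calls of Mllt3, Mecom, Meis1 and Hlf between numbers 3 and 1 held without each library in turn, and that of Nfix was lost without YH250 library 1, YH250 library 3, DMSO library 1 or DMSO library 3 (limma adjusted p 0.0663 to 0.249). Between numbers 3 and 2, Mecom was lost without YH250 library 3 (0.0643) or DMSO library 3 (0.10), and Meis1 without DMSO library 3 (0.0529), all as adjusted p by limma. The count of all genes called between numbers 3 and 1 was 457 without DMSO library 1, 417 without DMSO library 3, 3010 without YH250 library 2 and 2917 without DMSO library 2, against 1164 with all libraries.

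Markers of other cells moved with the number. Summed over 9 genes of multipotent and lymphoid-primed progenitors, YH250 libraries 1 to 3 had 269, 1074 and 1880 RPM, against 232, 976 and 1987 RPM in DMSO libraries 1 to 3, with 8 of the 9 genes called higher in number 3 than in number 1. Flt3, the receptor that marks the loss of long-term repopulation, had 28.9, 224 and 244 RPM in YH250 libraries 1 to 3, against 26.6, 240.1 and 271 RPM in DMSO libraries 1 to 3. Of 8 tested B cell markers 8 were called higher in number 3 than in number 1, and of 15 T, NK and innate lymphoid markers 8. Their sums were 891 and 565 RPM in YH250 library 3, and 694 and 589 RPM in DMSO library 3. The sums in the other 4 libraries were 65.5 to 301 RPM of B cell and 94.3 to 240 RPM of T, NK and innate lymphoid markers. The B cell factor Pax5 was at 0.27 RPM or less in every library, whereas Cd79a reached 229 RPM in YH250 library 3. Cd3e, the gene of a CD3 chain, had 13.5 RPM in YH250 library 3, 12.6 RPM in YH250 library 2 and 9.38 RPM in DMSO library 3. It was not called between numbers 3 and 1 (limma adjusted p = 0.0996). Among 9 tested megakaryocyte and erythroid markers 3 were called lower in number 3 than in number 1, and among 12 genes of G2 and M phase 5 were called higher. Of 12 myeloid markers 2 were called higher (Mpo and Ctsg), and 11 were higher in the means. Of 11 tested endothelial and stromal markers 2 were called lower (Tie1 and Cxcl12). Among 12 genes of S phase 1 was called higher. All these counts stand beside 8.56% of all tested genes called in that contrast (2.96% lower), and the S phase count is near that share. The part of these cells and phases in the levels of the 9 regulators was not tested.

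**Figure D3:**
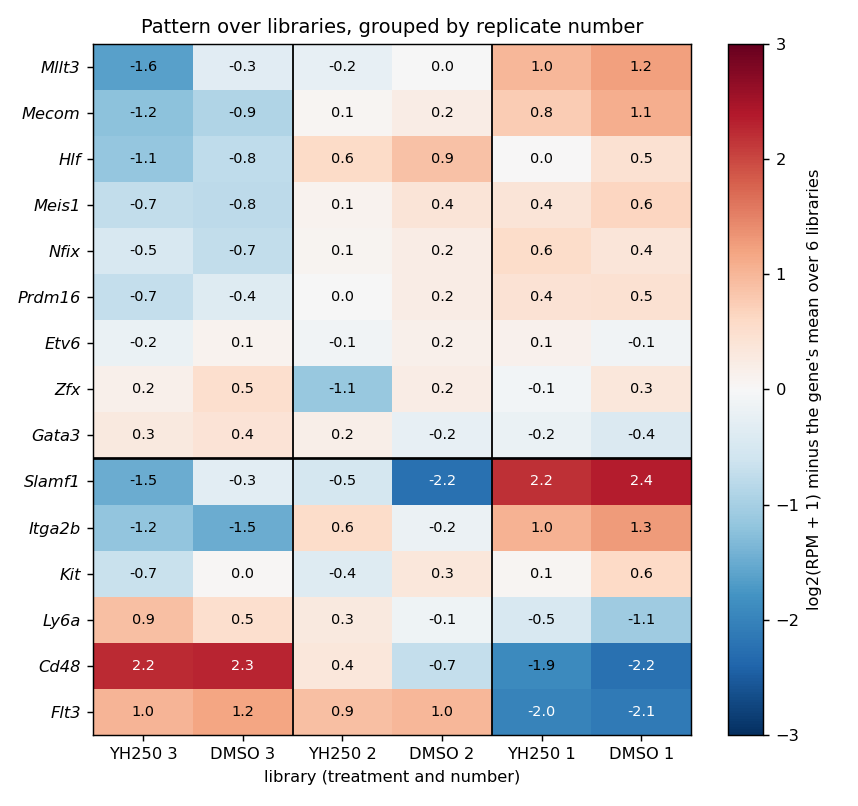
Heat map of the level of each of the 9 regulators (upper rows), of 5 sort genes and of Flt3 (lower rows) in each library, as log2(RPM + 1) minus the gene's own mean over the 6 libraries, with columns grouped by replicate number and the value written in each cell. In both groups Mllt3, Mecom, Meis1, Prdm16 and Nfix are lowest in number 3 and highest in number 1, Hlf is highest in number 2, Gata3 is highest in number 3, and Cd48 and Flt3 are highest in number 3.

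The promoters of the 5 genes called lower in number 3 than in number 1 are shown because these genes passed that test. Their profiles over the 6 libraries were not all alike, as Hlf was highest in number 2. Prdm16, which did not pass, had a profile close to those of Meis1 and Nfix. The RefSeq set used holds 15 promoters for the 9 genes, all 9 of which matched. For each of the 5 the 250 bases before the farthest upstream of these RefSeq starts are printed (GRCm38.p6, on the gene's strand, ending at the base before the start). The gene spans given above reach farther upstream than the printed windows for Mecom (to 30548008) and Nfix (to 84800344), and into that of Meis1 (to 19018985). Starts beyond the 15 were not searched. Capitals mark matches, on either strand, to short motifs, with AGATAA searched for as the site of GATA factors, CCGGAAG for ETS, TGTGGT for RUNX, CTTTGA for TCF/LEF, TGACAG for MEIS, TTACNTAA or TTATGTAA for PAR bZIP factors, TGACGTCA for the cyclic AMP response element (CRE), GGGCGG for Sp/Klf and TATAAA for the promoter box of that name.
Hlf promoter, chr11:90390918-90391167, minus strand: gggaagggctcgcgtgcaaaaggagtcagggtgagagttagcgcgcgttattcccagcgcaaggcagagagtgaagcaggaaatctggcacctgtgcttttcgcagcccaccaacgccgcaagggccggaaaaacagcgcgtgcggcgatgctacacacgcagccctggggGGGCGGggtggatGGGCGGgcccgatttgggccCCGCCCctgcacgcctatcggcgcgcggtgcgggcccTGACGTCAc
Mecom promoter, chr3:30509760-30510009, minus strand: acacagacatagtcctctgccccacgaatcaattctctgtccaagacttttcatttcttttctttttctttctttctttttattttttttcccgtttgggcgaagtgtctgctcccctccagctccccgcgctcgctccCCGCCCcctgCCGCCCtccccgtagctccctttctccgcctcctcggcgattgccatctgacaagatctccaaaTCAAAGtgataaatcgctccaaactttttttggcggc
Meis1 promoter, chr11:19018970-19019219, minus strand: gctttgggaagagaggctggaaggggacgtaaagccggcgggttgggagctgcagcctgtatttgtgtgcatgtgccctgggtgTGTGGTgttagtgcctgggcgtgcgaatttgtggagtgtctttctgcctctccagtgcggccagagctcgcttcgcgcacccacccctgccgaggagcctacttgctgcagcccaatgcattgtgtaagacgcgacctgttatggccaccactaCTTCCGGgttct
Mllt3 promoter, chr4:88033408-88033657, minus strand: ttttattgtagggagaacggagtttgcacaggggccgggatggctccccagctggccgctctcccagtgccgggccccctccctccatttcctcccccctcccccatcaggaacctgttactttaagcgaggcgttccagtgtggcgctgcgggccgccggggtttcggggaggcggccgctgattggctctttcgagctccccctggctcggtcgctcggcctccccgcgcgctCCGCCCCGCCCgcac
Nfix promoter, chr8:84780083-84780332, minus strand: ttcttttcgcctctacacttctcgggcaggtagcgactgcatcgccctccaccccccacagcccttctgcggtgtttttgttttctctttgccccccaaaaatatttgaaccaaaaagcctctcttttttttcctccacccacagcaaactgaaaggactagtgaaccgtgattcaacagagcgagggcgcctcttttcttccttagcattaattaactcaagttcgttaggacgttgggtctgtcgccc

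Hlf has 1 CRE and 3 Sp/Klf matches, Mecom 1 TCF/LEF and 2 Sp/Klf, Meis1 1 ETS and 1 RUNX, Mllt3 2 Sp/Klf that share a base, and Nfix none. No motif was common to these 5 printed promoters. Of the Nfix promoters not printed, 1 holds 2 Sp/Klf matches and another 1 RUNX match. Which start these cells use was not tested. The CRE letters stand in 1.55% of 32817 mouse promoters of the same length, those of ETS in 6.9%, TCF/LEF in 13.8%, RUNX in 14% and Sp/Klf in 32.7%. The TCF/LEF letters, those of the factors that bring catenin to DNA, are in 2 of the 15 promoters of the 9 genes, 1 of Mecom and 1 of Zfx. The MEIS letters (15.9% of all promoters) are also in 2 of the 15, 1 of Mecom and 1 of Mllt3, neither of them printed here. No match was found in the 15 for the GATA (9.99% of all promoters), PAR bZIP (2.06%) or TATA (12.4%) letters. The 250 bases of Mllt3 are 69.2% G and C, those of Hlf 67.2%, Meis1 59.6%, Mecom 50.8% and Nfix 49.2%, with a median of 52.4% over all promoters. A match is a string of letters and not a measured binding site.

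Across the 6 libraries the 9 genes fell into like and unlike profiles. Likeness was measured as the root mean square difference between profiles of log2(RPM + 1), each centred on its own mean, so that 0 is an identical profile. The closest pairs were Meis1 with Nfix (0.18), Prdm16 with Nfix (0.19) and Meis1 with Prdm16 (0.20). Mecom lay near Meis1 (0.31) and Mllt3 (0.34), and the farthest pair was Mllt3 with Gata3 (1.20). Same-numbered libraries deviated together (correlations of 0.551, 0.256 and 0.696), so the 6 points are not independent.

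Among 8579 genes averaging 10 RPM or more, the profile nearest to Hlf was that of Mdga1 (0.12), followed by Csf2ra (0.13), the alpha chain of the GM-CSF receptor, and Lzts2 (0.14). Csf2ra had 25.5, 35.5 and 10.4 RPM in YH250 libraries 1 to 3, against 36.1, 36.9 and 14.7 RPM in DMSO libraries 1 to 3. Mecom was nearest to Rhof (0.12), P3h3 (0.13) and Acss2 (0.15). Meis1 was nearest to Pcyt2 (0.10), Exoc6b (0.11) and Tom1l1 (0.12). Prdm16 was nearest to Smarca2 (0.07), an ATPase of the SWI/SNF remodelling complex, to Nfic (0.08) and to Txnip (0.09). The nearest to Mllt3 was App (0.15), the amyloid precursor protein gene, then Jam3 (0.20) and Mylk (0.24), the largest such distances of the 9. The measure is not scaled to a gene's own spread, so distances cannot be ranked between genes as closeness of shape. On the log2(RPM + 1) scale the SD over the 6 libraries was widest for Mllt3 (1.03) and narrowest for Etv6 (0.15). The flat profile of Etv6 was shared with Nipsnap2 (0.05), Pcf11 (0.05) and Btg3 (0.06), and that of Gata3 lay near those of Mrps28 (0.05), Ubl5 (0.06) and the proteasome subunit gene Psma2 (0.06). Zfx was nearest to Apaf1 (0.05), Usp6nl (0.07) and Ipo8 (0.08), and Nfix to Eepd1 (0.05), Anxa5 (0.08) and Ccdc9 (0.09).

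None of the listed relatives and partners that were tested was called between YH250 and DMSO; no such list is given for Meis1. Between numbers 3 and 1 a few moved, in both directions, to be read against the 8.56% of all tested genes called in that contrast (2.96% lower); counts of 0 or 1 in lists this short are near that background. The PAR bZIP factors Dbp and Tef and their antagonist Nfil3, the closest kin of Hlf, gave 0 calls of 3, with a median of -0.41. Of the 8 other PR domain genes 1 was called, Prdm1 (Blimp-1, a repressor that drives plasma cell differentiation), which was higher in number 3 by 3.40 (adjusted p = 0.00355, limma). It had 12.7 RPM in YH250 library 3 and 12.3 RPM in DMSO library 3, against 0.58 RPM in YH250 library 1 and 0.038 RPM in DMSO library 1, the opposite direction to Mecom.

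The 15 tested partners of Mllt3 in the elongation and Dot1l complexes had a median of -0.02 and 1 call, Eaf2, an ELL-associated factor, which was higher by 4.14 (limma adjusted p = 0.00195). Dot1l itself had 21.8 RPM in YH250 library 3 and 31.0 RPM in DMSO library 3, against 25.6 RPM in YH250 library 1 and 29.4 RPM in DMSO library 1.

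Of the 3 tested GATA genes and cofactors 2 were called lower in number 3 than in number 1. Gata2, the GATA factor of early stem and progenitor cells, differed by -1.89 (limma adjusted p = 0.00229), and Zfpm1 (FOG-1, the cofactor of Gata1) by -2.09 (adjusted p = 0.00351). Gata2 had 37.6 RPM in YH250 library 3 and 51.0 RPM in DMSO library 3, against 172 RPM in YH250 library 1 and 158 RPM in DMSO library 1. Among the 9 ETS genes set beside Etv6 only Ets1, a factor of lymphoid cells, was called, higher in number 3 by 1.85 (limma adjusted p = 0.00361), while Etv6 itself was at -0.06 (adjusted p = 0.902). Among the other 3 nuclear factor I genes Nfic was called lower by -0.99 (limma adjusted p = 0.0249), close to the change of Nfix. Of the paralogs of Zfx, Zfp711 passed the filter at a mean of 2.01 RPM without a call in this contrast, and the Y-linked Zfy1 and Zfy2 are listed at 0 in all 6 libraries. Between numbers 3 and 2 the calls are to be read against 6.31% of all tested genes called (2.64% lower). Of 15 elongation and Dot1l partners Eaf2 (3.33) and Aff1 (1.15) were called higher in number 3, as was Ets1 (1.59) of 9 ETS genes. Gata2 (-1.18), of 3 GATA genes and cofactors, and Zfp711 (-2.26), the 1 Zfx paralog tested, were called lower. The PAR bZIP (3 tested), PR domain (8) and nuclear factor I (3) lists had 0 calls. Counts of 0 or 1 in such short lists are again near the background. Zfp711 was at 0 in both libraries numbered 3.

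**Figure D4:**
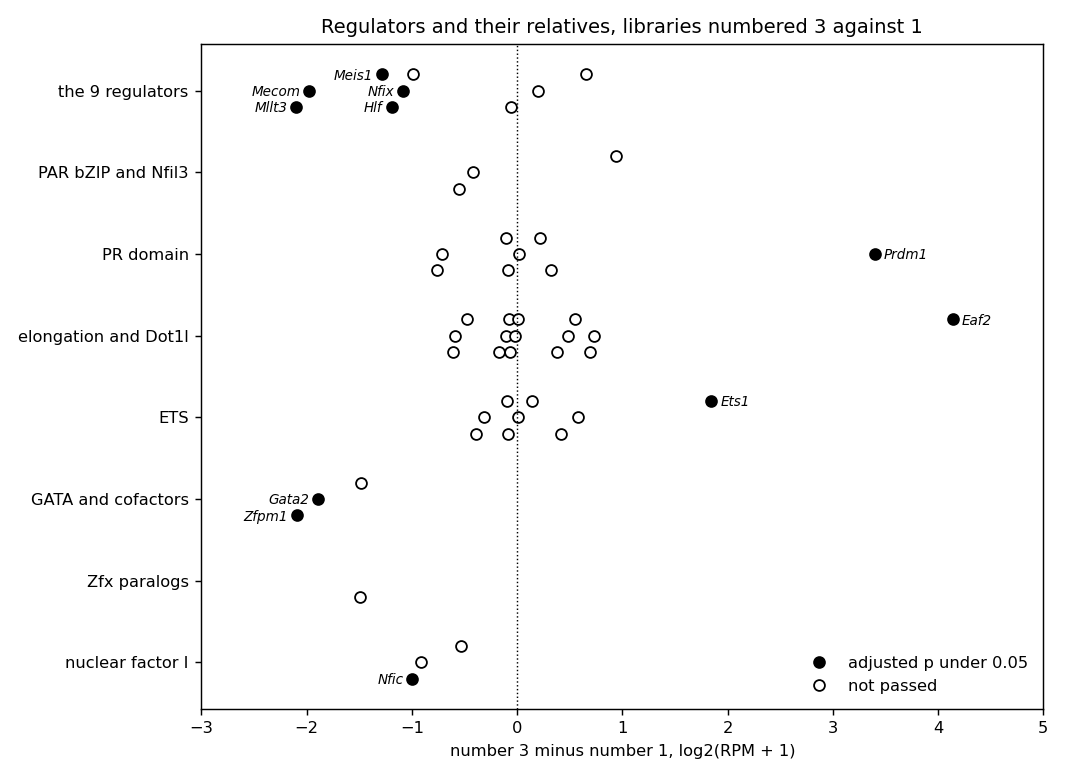
Difference between number 3 and number 1 on the log2(RPM + 1) scale for the 9 regulators and for tested relatives and partners, by family (none for Meis1), with named, filled symbols for calls at an adjusted p of 0.05 and open symbols for the rest. Within the GATA and nuclear factor I families the called genes are lower in number 3, and in the PR domain, elongation and ETS lists the called relatives Prdm1, Eaf2 and Ets1 are higher.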

How the data were processed

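Poly(A) RNA of 6 mouse libraries, 3 after YH250 and 3 after DMSO, was made with an ultra-low-input kit and sequenced single end on an Illumina instrument, per the labels' protocols. Without giving their roles, the submitters' processing notes list mm10, Partek, TopHat2 2.0.8 and CASAVA 1.8.2. The authors deposited 1 table of normalized signal per gene with a minimum of 1.0 in every library, read here from its values as RPM plus 1; this scale is stated by no header or label. After subtracting 1, 59.6% to 67.3% of low values (under 20 reads) lay within 0.1 of a whole read, so depth was estimated but no count test was run.

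Differences were tested on log2(RPM + 1) values computed from the deposited signal, with limma 3.58.1 in R 4.3.3 (trend and robust variance), for genes averaging 1 RPM or more, and p-values were adjusted by the Benjamini-Hochberg method over 13597 genes. The main fit compared YH250 with DMSO without a block. Deviations from group means correlated between libraries of the same number at 0.551, 0.256 and 0.696, against -0.551 to 0.144 between unlike numbers. Deviations within a group sum to 0, which pulls the unlike values down, and number 2 was the least clearly paired. On this basis the numbers, given in the labels, were treated as pairs. A fit with the replicate number as a block is given as the alternative. Numbers were compared in pairs with treatment as a second term, on 2 libraries each. These fold differences understate changes of low genes. A permutation of 3 against 3 libraries cannot go below p = 0.1. The fit was first tested on simulated data.

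Genes were named by these rules: all 9 members with every library's value, the 3 nearest profiles to each, and called relatives. Members and gene lists were chosen with earlier results of these data known. Exon lengths are from GENCODE M21 (GRCm38), promoters from RefSeq (GRCm38.p6). No protein sequence was used here. The partners of Meis1 are not reported here.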

Additional observations from a re-analysis of the deposited data

How the results depend on the processing

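No gene, and none of the 9 regulators, was called between YH250 and DMSO under any scaling, pseudocount, minimum, weighting or library left out, nor with the replicate block, in which the median of the 9 was again -0.20. That median was -0.29 with RPM rescaled to one sum per library. Leaving out 1 library, or both of a number, gave medians of -0.60 to 0.10. The same omissions gave -0.85 to 0.10 for Hlf, -0.79 to 0.27 for Mecom, -0.60 to 0.17 for Meis1, -0.46 to 0.11 for Prdm16, -1.22 to 0.092 for Mllt3 and -0.24 to 0.38 for Nfix, while Etv6 (-0.28 to -0.02), Zfx (-0.97 to -0.32) and Gata3 (0.01 to 0.43) kept their sign.

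Between numbers 3 and 1 the genes called were 180 with no minimum and 2641 with array weights, against 1164, and 417 to 3010 with 1 library left out; the regulators called were 2 with no minimum and 4 to 6 with a library left out. Without a minimum more genes were tested and the calls of Meis1 (adjusted p 0.0512), Mllt3 (0.0696) and Nfix (0.126) were lost by limma. Between numbers 3 and 2 the genes called were 42 with no minimum and 250 to 3137 with 1 library left out; the regulators called were 1 with no minimum, 5 with rescaling to one sum (Mllt3 and Nfix added, with 1075 of all genes called against 858) and 2 to 5 with a library left out. Between numbers 2 and 1 the genes called were 0 with no minimum, 75 at a minimum of 5 RPM, 46 after quantile normalization and 39 to 1764 with 1 library left out, and the regulators called 0 to 1. The cause of these shifts was not tested. Rescaling to one sum moved the median of all genes to -0.28 between numbers 3 and 1 and to -0.14 between numbers 3 and 2. Between numbers 3 and 1 it put Zfx at -0.16, quantile normalization at -0.058 and leaving out a library at -0.073 to 0.47, and Etv6 with a library left out was at -0.31 to 0.19. Etv6 also changed sign between numbers 3 and 2 (-0.22 to 0.061) and between numbers 2 and 1 (-0.23 to 0.27, with -0.095 after rescaling and -0.14 after quantile normalization). Where a library is left out, a number with 1 library is assumed to vary like the others. Every regulator had at least 159 reads in each library, and the standard errors of its difference between YH250 and DMSO were 0.21 to 0.69.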
